A study of Mus musculus with 4 samples.

Results

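The genes described here encode the glycolytic pathway and a set of transcripts known to respond to low oxygen. The list names 34 genes, and a gene was included where a probe set of the array was annotated with its symbol and no other. By this rule 30 of the 34 genes were measured, with 53 probe sets in all, out of 17097 genes measured on the arrays. Gpi1, Pgam1, Eno1 and P4ha1 had no such probe set. RNA came from splenic dendritic cells (DC) taken by CD11c positive selection, with 1 array per group. The groups are WT PBS and WT LPS, and in the same way MARCO-/- PBS and MARCO-/- LPS. WT mice were wild type and MARCO-/- mice were genetically deficient in the scavenger receptor MARCO. The labels write the genetic background of the arrays as C56BL/6, while the paper names its WT mice as C57BL/6. Mice were 8 to 12 weeks old, and cells pooled from 5 to 6 animals were cultured overnight with PBS or with LPS at 100 ng/ml, a bacterial ligand of TLR4. The overnight culture was common to all 4 groups.

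In glycolysis, glucose is taken up, phosphorylated and split, and the resulting trioses are oxidised to pyruvate with a net gain of ATP. Pyruvate then enters mitochondria or is reduced to lactate, which is exported. HIF-1, a transcription factor whose alpha subunit is degraded when oxygen is present, induces most genes of the pathway together with genes of angiogenesis, mitophagy and growth restraint. DC activated by LPS are known to increase glycolysis.

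HIF-1 binds DNA at short sites, and their letters were looked up in the promoters of the measured genes. RefSeq windows of 250 bases ahead of a transcription start (build GRCm38.p6) were at hand for 28 of the 30 genes, 40 windows in all, and for Slc2a3 and Ndrg1 there was none. ACGTG, the more common core of the site, was present on either strand in 19 of the 40 windows, or 47.5%, against 16.6% of all 32851 windows. GCGTG, its variant, was present in 19 windows as well, or 47.5%, against 28.2% of all windows. At least 1 of the letter strings was found in 31 windows (77.5%), against 38.6% of all windows. The windows of these genes held a median of 60.0% G or C, against 52.4% for all windows, and windows of 1 gene can overlap. A match is a run of letters and not a measured binding site, and an absent match says nothing of the factor. The windows of Pfkfb3, Mif, Hk2 and Ddit4 are shown because their transcripts give the main patterns described below, higher with LPS for the first pair, lower with LPS for Hk2, and higher in a single genotype for Ddit4. Each is written 5′ to 3′ in the direction of its gene, with the searched letters in capitals. Capitals mark ACGTG on the strand shown or, as its reverse complement, CACGT. They mark GCGTG in the same way, and no window shown holds CACGC from the other strand.
Pfkfb3: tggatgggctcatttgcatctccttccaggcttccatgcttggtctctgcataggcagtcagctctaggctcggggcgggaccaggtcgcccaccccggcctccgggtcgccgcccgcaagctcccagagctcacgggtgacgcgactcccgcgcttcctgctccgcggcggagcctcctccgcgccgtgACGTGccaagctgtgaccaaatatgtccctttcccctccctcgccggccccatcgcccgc
Mif: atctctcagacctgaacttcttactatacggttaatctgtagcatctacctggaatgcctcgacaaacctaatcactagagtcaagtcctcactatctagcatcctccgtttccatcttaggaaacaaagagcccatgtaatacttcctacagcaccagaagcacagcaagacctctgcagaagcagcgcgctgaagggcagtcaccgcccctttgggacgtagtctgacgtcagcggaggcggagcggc
Hk2: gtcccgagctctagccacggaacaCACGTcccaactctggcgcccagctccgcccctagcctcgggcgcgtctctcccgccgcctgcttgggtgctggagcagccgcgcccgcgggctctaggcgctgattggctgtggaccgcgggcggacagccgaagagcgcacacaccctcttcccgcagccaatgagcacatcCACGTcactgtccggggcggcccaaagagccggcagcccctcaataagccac
Ddit4: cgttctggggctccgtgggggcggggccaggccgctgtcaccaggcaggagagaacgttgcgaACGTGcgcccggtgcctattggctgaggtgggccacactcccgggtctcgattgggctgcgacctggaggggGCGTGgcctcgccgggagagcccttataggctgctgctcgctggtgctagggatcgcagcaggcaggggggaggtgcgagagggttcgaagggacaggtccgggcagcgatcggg
The Pfkfb3 window lies at chr2:11553930-11554179 on the minus strand and holds ACGTG 60 bases before the start. The Hk2 window lies at chr6:82774455-82774704 on the minus strand and holds the reverse complement of ACGTG at 226 and 52 bases before the start. The Ddit4 window lies at chr10:59951771-59952020 on the minus strand and holds ACGTG at 187 bases and GCGTG at 115 bases before the start. The Mif window lies at chr10:75860278-75860527 on the minus strand and holds none of these strings, as did those of Tpi1 and Eno2. Pfkfb3 has 2 windows, of which the one farther upstream is shown.

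Values are intensities on a linear scale, normalized by the authors with RMA, a method that corrects background, equalises arrays and combines the probes of a set. Each gene is represented by the brightest probe set with its symbol alone. The median of all intensities was 4.87, and values near it are background, where a fold means little. Slc16a3, the monocarboxylate transporter MCT4, and Egln3, an oxygen-dependent hydroxylase of HIF, did not exceed that median on any array. With 1 array per group there are no replicates, so no spread was measured and no test was made. A gene counts as past 2-fold where the ratio reached 2 in either direction, and counts of such genes are read against the share of all genes past the same threshold in the same direction. Intensities of different genes are not compared, since probe sets differ in brightness.

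The arrays carried transcripts that are markers of other cells than DC, and these moved between arrays. Which cells they came from was not tested. The 16 measured DC markers summed to intensities from 14654 to 21208. H2-Aa, a chain of MHC class II, had intensities from 2035 to 5231. Itgax, which encodes CD11c, had 548 and 621 on the WT and MARCO-/- PBS arrays, and 12.9 and 16.4 on the LPS arrays. Of the 16 DC markers, 6 were past 2-fold lower and 2 higher with LPS in WT, and 7 lower and 4 higher in MARCO-/-. Of all genes, 8.31% were lower and 6.2% higher in WT, and 5.98% lower and 6.32% higher in MARCO-/-. Cd80, a costimulatory ligand, was 3.28-fold and 3.33-fold higher, and Fscn1, an actin-bundling protein of mature DC, 2.23-fold and 2.50-fold higher. The summed intensity of 17 skeletal muscle markers was 91.8 on WT PBS, 913 on WT LPS, 358 on MARCO-/- PBS and 76.1 on MARCO-/- LPS, with 5, 17, 14 and 4 of them above the median of all intensities. That of 17 fibroblast and matrix markers was 76.5, 2244, 699 and 83.7 in the same order. Thus WT LPS and MARCO-/- PBS were the arrays high in both lists. The sum of 15 macrophage markers was lower with LPS, from 2418 to 566 in WT and from 3608 to 860 in MARCO-/-, and that of 13 neutrophil and monocyte markers went from 569 to 104 and from 419 to 75.7. The sum of 12 T and NK cell markers went from 1366 to 549 and from 979 to 335. Erythroid markers (11 genes) summed to 4338 to 7155, most of it Hba-a1, an alpha globin with 3971 to 6792. Of these 11, 6 were past 2-fold higher in MARCO-/- with PBS, against 0.76% of all genes. Among them was Slc4a1, the anion exchanger of red cells, at 5.74-fold. With LPS in MARCO-/-, 5 of the 11 were past 2-fold lower, against 5.98% of all genes. B cell markers (11 genes) summed to 1968 to 2679, and endothelial markers (14 genes) to 162 to 219. In bulk RNA, fewer cells of a type and less RNA per cell cannot be told apart.

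The LPS comparison asks how overnight activation changed these transcripts in each genotype. In WT, 6 of the 30 genes were at least 2-fold higher with LPS, namely Pfkfb3, Aldoa, Pkm, Ndrg1, Mif and Ddit4, against 6.2% of all genes. Another 5 were at least 2-fold lower, namely Slc2a3, Hk2, Pfkfb4, Aldoc and Pdk1, against 8.31% of all genes. In MARCO-/-, 6 genes were higher, namely Pfkfb3, Aldoa, Eno2, Adm, Ndrg1 and Mif, against 6.32% of all genes, and Slc2a3 and Hk2 were lower, against 5.98%. The shares of these genes that were higher, 20.0% in each genotype, thus exceeded those of all genes. The share that was lower in WT, 16.7%, was above 8.31% but nearer to the 12.9% of genes above background given next, and it depends on the scaling of the arrays. The share that was lower in MARCO-/-, 6.67%, was close to that of all genes. Genes at background rarely pass, and 28 of the 30 lie above it on some array. Over the 10955 such genes of the arrays, 9.62% were higher and 12.9% lower with LPS in WT, and 9.86% were higher and 9.33% lower in MARCO-/-. The median log2 ratio of LPS over PBS was 0.29 in WT and 0.18 in MARCO-/-, against 0.05 and 0.00 over all genes. The MARCO-/- median turned to -0.21 when probe sets with the endings x_at, s_at and a_at were left out, and to -0.017 when the probe sets of a gene were averaged. A ratio above 0 was found for 21 of the 30 genes in WT and for 17 in MARCO-/-, against 9438 and 7837 of all 17097 genes.

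Pfkfb3, Aldoa, Ndrg1 and Mif were past 2-fold higher in both genotypes (4 of 30 genes, against 3.89% of all genes), and Slc2a3 and Hk2 past 2-fold lower in both (2 genes, against 4.55%). Pkm and Ddit4 passed higher in WT without doing so in MARCO-/- (2 genes, against 1.97% of all genes), and Eno2 and Adm passed higher in MARCO-/- without doing so in WT (2 genes, against 2.43%). Pfkfb4, Aldoc and Pdk1 passed lower in WT without doing so in MARCO-/- (3 genes, against 3.76%), and none passed lower in MARCO-/- alone (against 1.09%). No gene passed in opposite directions (against 0.339%), and 17 stayed under 2-fold in both genotypes, or 56.7% against 82% of all genes. These shares of all genes include genes at background, which rarely pass, while most of the 30 lie above it. Whether a gene's LPS responses differ between the genotypes was not tested. Over all 53 probe sets, 10 were higher and 9 lower with LPS in WT (against 5.2% and 8.32% of all probe sets), and 10 were higher and 3 lower in MARCO-/- (against 5.78% and 5.53%). The lower calls in WT depend on the scaling of the arrays: after quantile normalization 1 of the 5, Slc2a3, still passed, and after cyclic loess 3 did. Over all genes 6.81% and 7.21% were lower under these scalings.

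**Figure D1:**
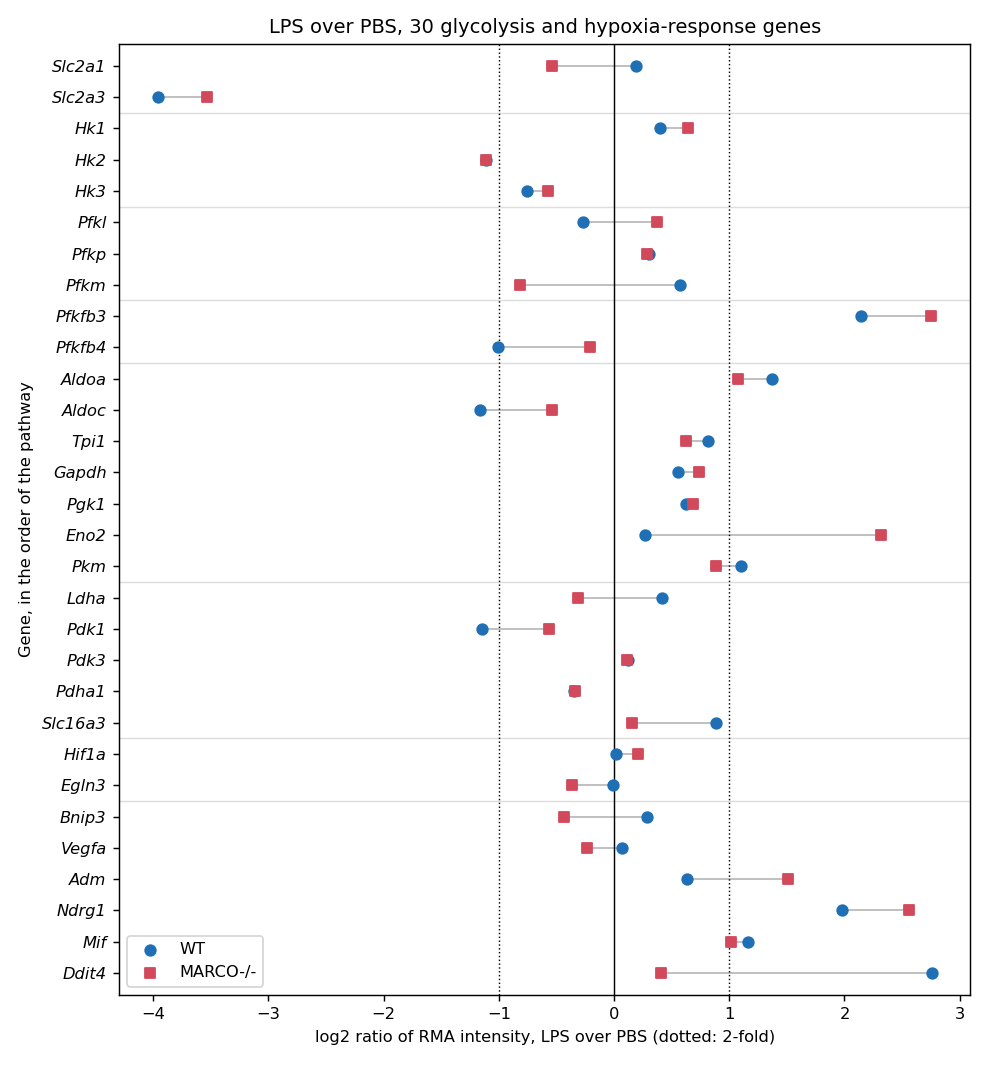
Log2 ratio of RMA intensity, LPS over PBS, for each of the 30 measured genes, listed from glucose uptake to the hypoxia-response genes with grey lines between roles; circles are WT, squares MARCO-/-, 1 array per group, and dotted lines mark 2-fold. Slc2a3 lies far to the left at -3.96 and -3.53, Pfkfb3 and Ndrg1 far to the right in both genotypes, and Ddit4 and Eno2 show the widest gaps between the genotypes.

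The glucose transporters differed from each other. Slc2a3 encodes GLUT3, a high-affinity glucose transporter. Its intensity was 379 on WT PBS, 24.4 on WT LPS, 438 on MARCO-/- PBS and 37.9 on MARCO-/- LPS. Both LPS arrays were far below both PBS arrays, 15.6-fold in WT and 11.6-fold in MARCO-/-. A second probe set of the gene read 123, 9.86, 146 and 13.1 in the same order, which is 12.4-fold and 11.1-fold lower, and the remaining pair stayed between 1.99 and 3.40, under the median of all intensities, and did not pass 2-fold. The bright pair has the endings s_at and x_at, of probe sets that may read several transcripts. With the endings x_at, s_at and a_at left out, a dim probe set remained, with log2 ratios of -0.54 in WT and -0.36 in MARCO-/-. The macrophage and the neutrophil and monocyte sums given above were lower on the same arrays, and their part in the result was not tested. Slc2a1, which encodes GLUT1, the transporter most often tied to activated immune cells, had intensities from 44.3 to 64.4 and stayed under 2-fold in each comparison, with log2 ratios of 0.19 in WT and -0.54 in MARCO-/-.

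Hexokinases trap glucose as glucose 6-phosphate, and their 3 measured genes were either lower with LPS or changed by under 2-fold. Hk2, the inducible hexokinase bound to mitochondria, had 122 on WT PBS, 56.5 on WT LPS, 124 on MARCO-/- PBS and 57.1 on MARCO-/- LPS. The values were nearly the same in both genotypes, and LPS over PBS was 2.16-fold lower in each. In WT this became -0.97 on the log2 scale after quantile normalization, just under 2-fold. Hk3, a hexokinase of myeloid cells, had log2 ratios of -0.76 in WT and -0.57 in MARCO-/-, and Hk1, the widespread form, 0.40 and 0.64.

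Phosphofructokinase commits the sugar to glycolysis, and its subunits stayed under 2-fold with LPS by their brightest probe sets. Pfkp, the platelet-type subunit, had 153 on WT PBS, 189 on WT LPS, 129 on MARCO-/- PBS and 158 on MARCO-/- LPS, and log2 ratios of 0.31 and 0.29. A dimmer probe set of Pfkp went the other way, with 30.1, 6.57, 21.1 and 11.8 in the same order, which is 4.58-fold lower in WT and 1.78-fold lower in MARCO-/-. The probe sets of Pfkp therefore disagree, and the file does not say which transcript each reads. Pfkl, the liver-type subunit, had intensities from 9.98 to 13.1, and Pfkm, the muscle-type subunit, had 6.66, 9.92, 6.91 and 3.93, close to background.

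The enzymes that make and degrade fructose 2,6-bisphosphate, an activator of phosphofructokinase, went apart. Pfkfb3, whose kinase activity raises this activator, had 84.3 on WT PBS, 373 on WT LPS, 87.6 on MARCO-/- PBS and 591 on MARCO-/- LPS. The PBS arrays were alike and both LPS arrays were higher, 4.43-fold in WT and 6.74-fold in MARCO-/-. A dimmer probe set read 8.72, 21.8, 9.38 and 28.1 in the same order, 2.50-fold and 2.99-fold higher. Pfkfb4, a related enzyme, had 23.8, 11.9, 22.7 and 19.7, so that WT LPS was the low array, 2.01-fold below WT PBS, and MARCO-/- LPS was 1.16-fold below MARCO-/- PBS. The Pfkfb4 call in WT was lost after quantile normalization (-0.77 on the log2 scale) and after cyclic loess (-0.84).

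Of the 7 measured enzymes from aldolase to pyruvate kinase, 6 had a ratio of LPS over PBS above 0 in each genotype, with medians of 0.63 in WT and 0.74 in MARCO-/- on the log2 scale. The same count of 6 was found under each of the other 3 scalings of the arrays. Of all 17097 genes, 9438 in WT and 7837 in MARCO-/- had a ratio above 0 in the deposited values. Aldoa, the main aldolase outside liver and brain, had 307 on WT PBS, 793 on WT LPS, 342 on MARCO-/- PBS and 723 on MARCO-/- LPS. Both LPS arrays were above both PBS arrays, 2.58-fold in WT and 2.11-fold in MARCO-/-. All 4 of its probe sets passed, at 2.58-fold to 3.26-fold in WT and 2.11-fold to 2.43-fold in MARCO-/-. All 4 have the ending x_at, of probe sets that may read several transcripts, so they need not be independent readings of Aldoa. Aldoa is abundant in muscle, and in MARCO-/- it was higher with LPS while the muscle sum was lower, 76.1 against 358. In WT both were higher, and the part of muscle RNA in these values was not tested.

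Pkm, the pyruvate kinase of most tissues, had 84.3 on WT PBS, 181 on WT LPS, 107 on MARCO-/- PBS and 198 on MARCO-/- LPS. Both LPS arrays were again above both PBS arrays, 2.15-fold in WT and 1.85-fold in MARCO-/-, so that 1 side passed the threshold and the other did not. The genotype ratios of Pkm were 0.35 with PBS and 0.13 with LPS on the log2 scale. Tpi1, triose phosphate isomerase, Gapdh, which makes the first NADH of the pathway, and Pgk1, the first ATP-forming enzyme, had both LPS arrays above both PBS arrays without reaching 2-fold. Their ratios were 1.76-fold and 1.55-fold for Tpi1, 1.47-fold and 1.67-fold for Gapdh, and 1.54-fold and 1.61-fold for Pgk1, in WT and MARCO-/-. The Gapdh intensities were 1000.25 on WT PBS, 1474 on WT LPS, 1028 on MARCO-/- PBS and 1714 on MARCO-/- LPS. The manufacturer's control probe sets for Gapdh, which are not among the 53, read higher with LPS as well: the set near the 3′ end had 971, 1564, 992 and 1637 in the same order. The signal of the 3′ control set over the 5′ one, a sign of RNA quality, was 1.77, 2.17, 1.82 and 2.20, thus also higher with LPS. For the beta-actin controls it was 1.45, 1.86, 1.59 and 1.66 in the same order, with a smaller change in MARCO-/-. The part of RNA quality in these ratios was not tested.

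Aldoc, the brain-type aldolase, had 24.3 on WT PBS, 10.8 on WT LPS, 10.8 on MARCO-/- PBS and 7.39 on MARCO-/- LPS. It was the 1 enzyme of these 7 that was lower with LPS in both genotypes, 2.24-fold in WT and 1.46-fold in MARCO-/-, and WT PBS stood above the other 3 arrays. Its other probe set stayed between 2.35 and 3.39, under the median of all intensities. Eno2, the neuronal enolase, had 4.90, 5.90, 3.80 and 19.0 in the same order. Only MARCO-/- LPS rose clearly above background, and since its PBS value is background the log2 ratio of 2.32 in MARCO-/- has no firm size. With 16 added to each intensity before the log2, it was 0.82.

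**Figure D2:**
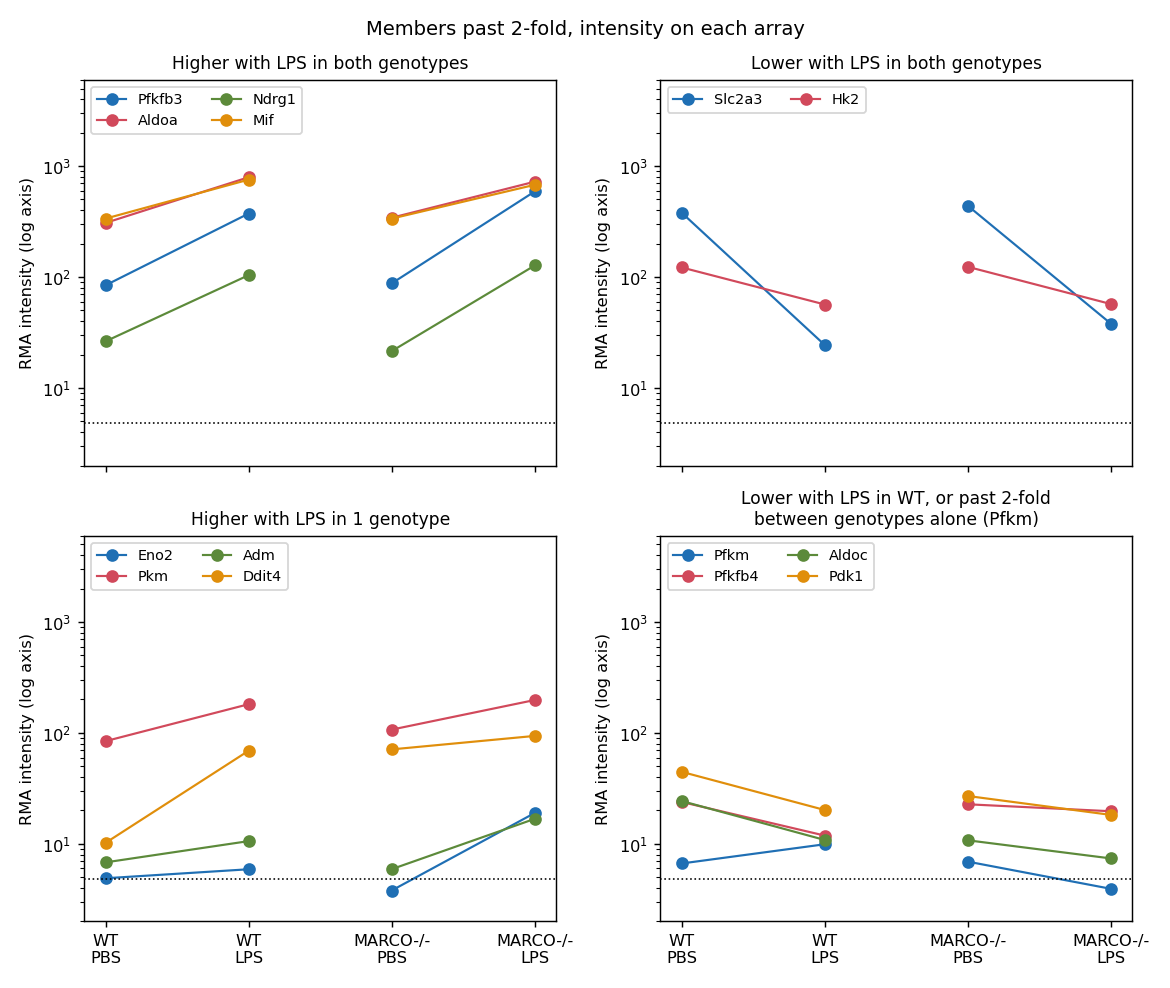
RMA intensity (log axis) on each of the 4 arrays for the 14 genes past 2-fold in at least 1 comparison, in panels by pattern; lines join PBS and LPS of the same genotype and the dotted line is the median of all intensities, 4.87. Pfkfb3, Aldoa, Ndrg1 and Mif are higher with LPS in both genotypes, Slc2a3 and Hk2 are lower in both, and Ddit4 is low on WT PBS alone.

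Genes that set the fate of pyruvate stayed mostly under 2-fold. Ldha, the lactate dehydrogenase subunit that favours lactate, had 557 on WT PBS, 744 on WT LPS, 618 on MARCO-/- PBS and 498 on MARCO-/- LPS, with log2 ratios of LPS over PBS of 0.42 in WT and -0.31 in MARCO-/-. Pdk1, a kinase that keeps pyruvate out of mitochondria by inhibiting pyruvate dehydrogenase, had 44.5, 20.2, 27.0 and 18.2 in the same order, 2.21-fold lower with LPS in WT and 1.48-fold lower in MARCO-/-. The call in WT was lost after quantile normalization (-0.90) and after cyclic loess (-0.98). The other probe sets of Pdk1 were lower with LPS in WT as well, one with 48.8, 8.33, 25.2 and 18.2 and one with 10.7, 3.75, 10.4 and 6.87, which is 5.86-fold and 2.86-fold. All 3 probe sets thus fell past 2-fold in WT, by different sizes. Pdk3, a related kinase, had intensities from 61.4 to 80.7, and Pdha1, the catalytic subunit of pyruvate dehydrogenase, was lower with LPS by 0.35 and 0.34 on the log2 scale. Slc16a3, which exports lactate, was at background on all 4 arrays.

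**Figure D3:**
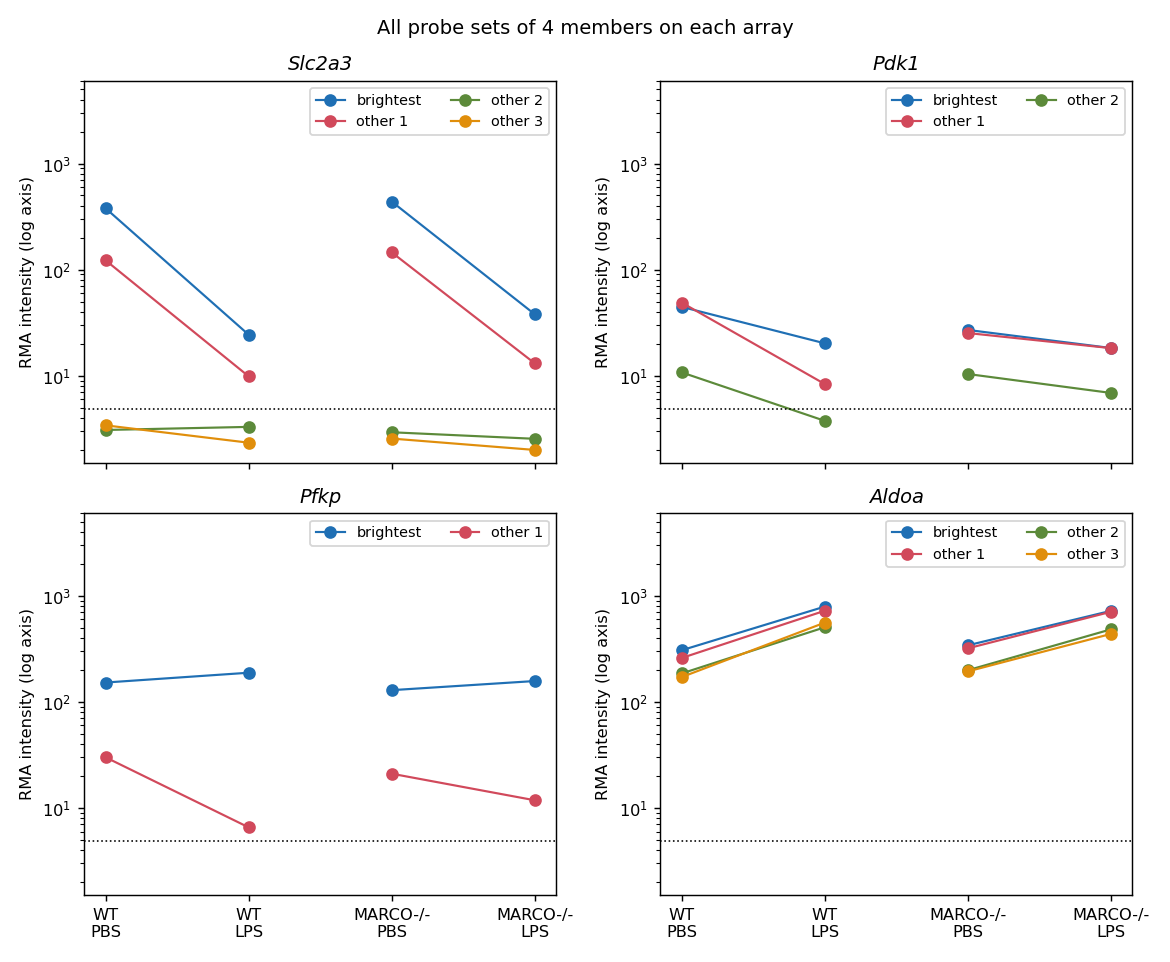
RMA intensity (log axis) of all probe sets of Slc2a3, Pdk1, Pfkp and Aldoa on each of the 4 arrays; blue is the brightest probe set, which represents the gene, lines join PBS and LPS of the same genotype, and the dotted line is the median of all intensities, 4.87. The 4 Aldoa probe sets run in parallel, the probe sets of Pfkp go apart with LPS, and 2 probe sets of Slc2a3 stay under the median.

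Hif1a, which encodes the oxygen-regulated subunit of HIF-1, changed little: it had 261 on WT PBS, 264 on WT LPS, 243 on MARCO-/- PBS and 282 on MARCO-/- LPS. Its ratios were 0.02 and 0.21 on the log2 scale. Egln3, which encodes the HIF hydroxylase PHD3 and is itself a target of HIF, was at background.

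Among the 6 other hypoxia-response genes measured, 3 were past 2-fold higher in each genotype and none was lower, against 6.2% of all genes higher in WT and 6.32% in MARCO-/-. Their median log2 ratios were 0.90 and 0.71. Ndrg1, a stress-response gene induced by low oxygen, had 26.3 on WT PBS, 104 on WT LPS, 21.5 on MARCO-/- PBS and 127 on MARCO-/- LPS, 3.95-fold and 5.91-fold higher. Mif, a cytokine stored in cells and released on activation, had 336, 755, 336 and 678 in the same order, 2.24-fold and 2.02-fold higher. The PBS values of Mif were the same in both genotypes, and its MARCO-/- ratio fell just under the threshold after quantile normalization (0.93 on the log2 scale) and cyclic loess (0.97). Its other 2 probe sets lay between 1.98 and 3.02, under the median of all intensities, and did not pass.

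Ddit4, which encodes REDD1, an inhibitor of mTORC1 induced by hypoxia and other stresses, had 10.2 on WT PBS, 69.1 on WT LPS, 71.0 on MARCO-/- PBS and 93.9 on MARCO-/- LPS. WT PBS was the low array and the other 3 were within 1.36-fold of each other, so that LPS over PBS was 6.76-fold in WT and 1.32-fold in MARCO-/-. It rests on 1 probe set and 1 low array. Adm, the vasodilator peptide adrenomedullin, had 6.81, 10.6, 5.91 and 16.8 in the same order, 1.55-fold higher in WT and 2.84-fold in MARCO-/- from values near background. Vegfa, the angiogenic growth factor, had intensities from 14.6 to 18.9, and Bnip3, a mitophagy receptor, from 28.2 to 49.4, both under 2-fold with LPS in each genotype.

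Between the genotypes few of these genes passed. With PBS, Ddit4 was 6.96-fold higher in MARCO-/- and Aldoc 2.26-fold lower, so that 1 of 30 genes was called in each direction, against 0.76% of all genes higher and 0.287% lower, or 1.19% and 0.447% of the genes above background. Both rest on WT PBS standing apart from the other 3 arrays. The Aldoc call was lost with 16 added before the log2 (-0.59), with its probe sets averaged (-0.71) and on its other, dim probe set (-0.24). With LPS, Eno2 was 3.21-fold higher in MARCO-/- and Pfkm 2.52-fold lower, again 1 of 30 in each direction, against 2.09% of all genes higher and 1.31% lower, or 3.26% and 2.01% of the genes above background. Over all genes the split with LPS was 357 higher and 224 lower, and it turned to 232 and 263 after quantile normalization. The median log2 ratios of the 30 genes were 0.03 with PBS and 0.05 with LPS, against 0.01 and 0.00 over all genes, and the second became -0.04 after quantile normalization. Over the 53 probe sets, 1 was higher and 1 lower with PBS (against 0.602% and 0.336% of all probe sets), and 2 were higher and 1 lower with LPS (against 2.12% and 1.08%). The second higher probe set with LPS was the Pdk1 probe set that read 8.33 on WT LPS and 18.2 on MARCO-/- LPS, 2.18-fold, while the brightest Pdk1 probe set was at -0.15 on the log2 scale.

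Pfkm with LPS was compared between values of 9.92 and 3.93, the second under the median of all intensities. With LPS, 16 of the 17 muscle markers were also past 2-fold lower in MARCO-/-, against 1.31% of all genes, among them Acta1, skeletal actin, at 159 in WT and 4.80 in MARCO-/-, and their part in the Pfkm value was not tested. Ldha had its highest value on WT LPS too, where it was 744 against 498, under 2-fold. Bnip3 was lower in MARCO-/- with LPS by 0.81 on the log2 scale and passed 2-fold after cyclic loess alone. Pfkfb3, Pfkfb4, Slc2a3 and Adm were higher in MARCO-/- with LPS by 0.66, 0.73, 0.64 and 0.67 on the log2 scale, all under 2-fold.

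**Figure D4:**
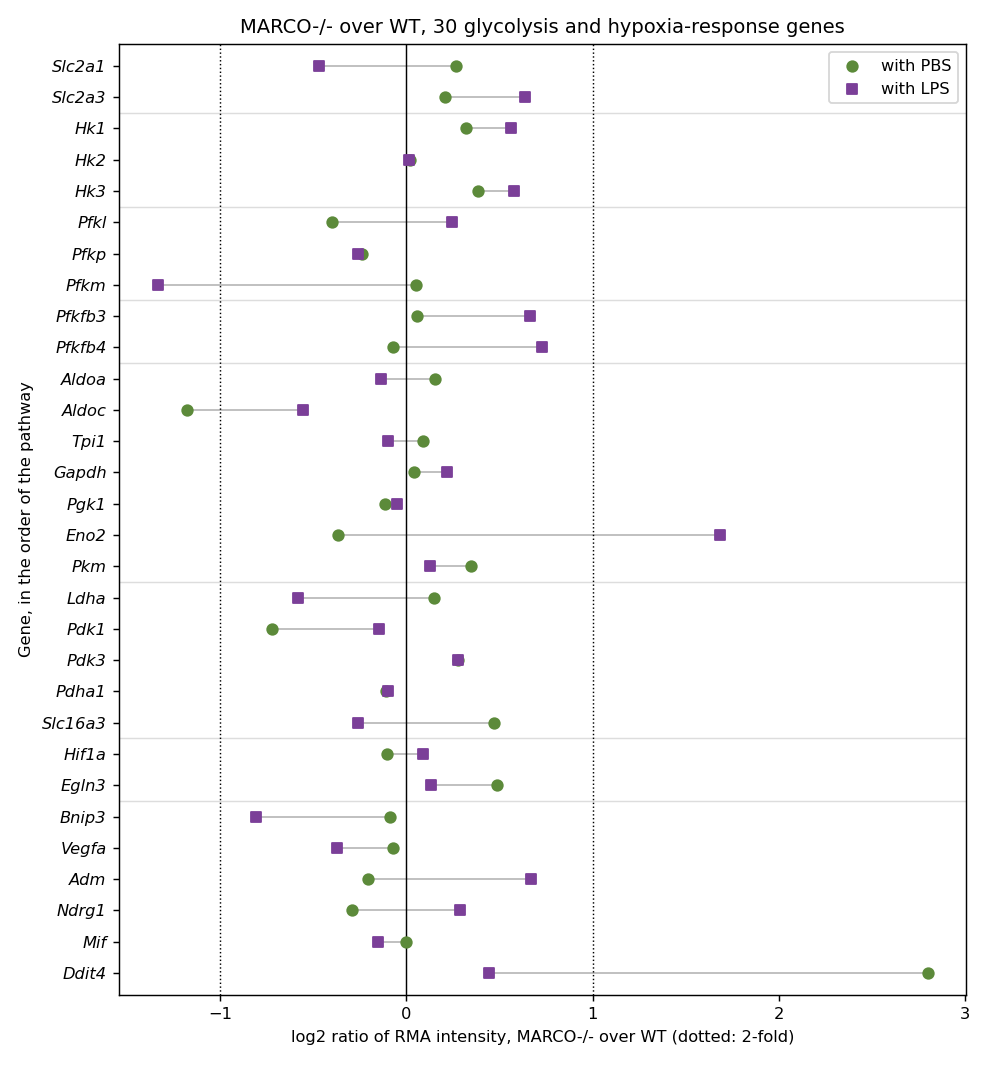
Log2 ratio of RMA intensity, MARCO-/- over WT, for the same 30 genes in the same order; circles are PBS, squares LPS, 1 array per group, and dotted lines mark 2-fold. Most points lie between the dotted lines, and Ddit4 and Aldoc with PBS and Eno2 and Pfkm with LPS lie outside.

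In all, 16 genes stayed under 2-fold in each of the 4 comparisons: Slc2a1, Hk1, Hk3, Pfkl, Pfkp, Tpi1, Gapdh, Pgk1, Ldha, Pdk3, Pdha1, Slc16a3, Hif1a, Egln3, Bnip3 and Vegfa. Their log2 ratios ran from -0.40 to 0.49 between genotypes with PBS, from -0.81 to 0.58 between genotypes with LPS, from -0.76 to 0.89 with LPS in WT and from -0.57 to 0.74 with LPS in MARCO-/-. The upper end in WT is Slc16a3, which is at background.

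Other genes of the same pathways were counted beside them. Of 37 further measured genes of glycolysis and pyruvate handling, 5 were higher and 2 lower with LPS in WT, or 13.5% and 5.41% against 6.2% and 8.31% of all genes. In MARCO-/- 4 were higher and 1 lower, or 10.8% and 2.70% against 6.32% and 5.98%. Their medians were 0.05 and 0.00 on the log2 scale. Slc2a6, which encodes the transporter GLUT6, went from 15.0 to 50.8 in WT (3.39-fold) and from 8.39 to 59.7 in MARCO-/- (7.11-fold). Slc16a1, the lactate and pyruvate transporter MCT1, went from 27.4 to 79.0 in WT and from 24.0 to 66.4 in MARCO-/-, 2.88-fold and 2.77-fold. Gpd2, the mitochondrial glycerol 3-phosphate dehydrogenase, was 2.67-fold and 2.64-fold higher, and Mpc1, a subunit of the mitochondrial pyruvate carrier, 2.36-fold and 2.86-fold higher. These 4 genes of transport and shuttling thus passed in both genotypes. Slc16a7, the transporter MCT2, went from 6.81 to 2.81 in WT and from 6.77 to 2.87 in MARCO-/-, 2.42-fold and 2.36-fold lower. Both of its LPS values were under the median of all intensities, so these folds have no firm size. Pygl, the liver-type glycogen phosphorylase, was 2.35-fold lower in WT and 1.45-fold lower in MARCO-/-.

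Of 42 further hypoxia-response genes, 6 were higher and 3 lower with LPS in WT, or 14.3% and 7.14% against 6.2% and 8.31% of all genes. In MARCO-/- 5 were higher and 2 lower, or 11.9% and 4.76% against 6.32% and 5.98%. Their medians were 0.19 and 0.00 on the log2 scale. Rora, a nuclear receptor, went from 16.2 to 104 in WT and from 16.7 to 154 in MARCO-/-, 6.43-fold and 9.20-fold. Anxa2, a membrane-binding annexin, was 4.44-fold and 4.69-fold higher, and Mxi1, an antagonist of MYC, 3.95-fold and 6.18-fold higher. Hmox1, which degrades heme and is also a macrophage marker here, went from 95.8 to 30.6 in WT, 3.13-fold lower, and was 1.84-fold lower in MARCO-/-. Wsb1 was 2.67-fold lower in WT and 1.23-fold lower in MARCO-/-. Lox, a collagen cross-linking enzyme, was 2.82-fold higher in WT, from 5.29 to 14.9, the array on which the matrix markers were highest. Cited2, a competitor of HIF for its coactivator, was 1.96-fold higher in WT and 3.17-fold higher in MARCO-/-. Ccng2 passed in both genotypes, 2.08-fold and 2.30-fold higher, as did Car9, carbonic anhydrase IX, 2.08-fold and 2.53-fold lower.

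Of 6 pentose phosphate genes, which draw glucose 6-phosphate off to make NADPH and ribose, Taldo1, the transaldolase, was 2.36-fold lower with LPS in WT and H6pd, which acts in the endoplasmic reticulum, 2.30-fold lower, or 33.3% of them against 8.31% of all genes. Of the genes above background 12.9% were lower. The H6pd value on WT LPS was 5.68, near background, and other scalings are given for the members alone. In MARCO-/- none of the 6 passed, and the ratios were 1.99-fold lower for Taldo1 and 1.31-fold lower for H6pd. Between genotypes with PBS none of these further genes passed. With LPS, Pygl was 2.20-fold, Hmox1 2.14-fold and Bpgm, which makes 2,3-bisphosphoglycerate, 2.03-fold higher in MARCO-/-. Epas1, which encodes HIF-2 alpha, was 2.58-fold, Lox 2.25-fold and Angptl4, an inhibitor of lipoprotein lipase, 2.24-fold lower. Their intensities were 13.1, 14.9 and 16.9 on WT LPS and 5.08, 6.63 and 7.55 on MARCO-/- LPS. The MARCO-/- LPS values are near background, so these folds have no firm size. In these lists 5.41% of the glycolysis genes and 2.38% of the hypoxia-response genes were thus higher, against 2.09% of all genes, and 7.14% of the latter lower, against 1.31%. The fibroblast and matrix sum was also lower there, 83.7 against 2244, and its part in these values was not tested.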

How the data were processed

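RNA of splenic DC was measured on 4 arrays, 1 per group, by the labels. Which of the 3 pools of each genotype gave this RNA was not stated. The deposited values are intensities that the authors normalized with RMAexpress from Affymetrix mouse genome arrays, on a linear scale. Their log2 was taken with no offset. Of 45141 probe sets, 104 controls were left out; 28898 have exactly 1 gene symbol in the platform annotation, 551 several and 15588 none listed here. A gene is represented by its probe set of highest mean log2 intensity, which gives 17097 genes.

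A call is a fold of at least 2. With 1 array per group there is no test, and the number of arrays limits the precision. The genes, lists, markers and naming rule were chosen with earlier results of these data known. Values on all arrays are given for members past 2-fold and for members whose probe sets disagree in a call, and of related lists up to 6 genes per LPS comparison and up to 4 per genotype comparison, by size. Counts, medians and single ratios of the members were repeated under those of 11 planned settings that apply to each, and 1 setting was added after seeing the data, and the steps were tested on simulated data. Promoters come from RefSeq (GRCm38.p6). Python 3.11.15 with pandas 2.3.3, numpy 2.4.6 and matplotlib 3.10.9, and R 4.3.3 with limma 3.58.1 were used.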

Additional observations from a re-analysis of the deposited data

Results flagged for a closer look

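For Pfkm the LPS response differed in direction between the genotypes, with a log2 ratio of 0.58 in WT and -0.81 in MARCO-/-, a difference of -1.39. For Ldha the ratios were 0.42 and -0.31, a difference of -0.73. Eno2 went the opposite way between genotypes with PBS and with LPS, at -0.37 and 1.68 on the log2 scale, a difference of 2.05. Pfkm lay close to background, from 3.93 to 9.92, and Eno2 with PBS was at background. With 16 added to each intensity before the log2, Pfkm in MARCO-/- was -0.20 and Eno2 with LPS 0.68. The muscle sum was highest on WT LPS and lowest on MARCO-/- LPS, as were Pfkm and Ldha, and its part was not tested. With 1 array per group the differences between genotypes were not tested either.

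The control probe sets for Gapdh, which are not among the probe sets of these genes, were higher with LPS in both genotypes. The set near the 3′ end had log2 ratios of LPS over PBS of 0.69 in WT and 0.72 in MARCO-/-, and the set in the middle of the transcript 0.86 and 0.68. The set near the 5′ end had smaller ratios, 0.39 and 0.45.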

How the results depend on the processing

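Quantile normalization, cyclic loess and centring of the arrays on their medians turned no called ratio of a member around. Over the single-gene ratios, 893 stayed on the same side of 2-fold and within 1.5-fold, 18 moved, 28 lost the call and 1 gained it. With LPS in WT, quantile normalization left 7 member genes past 2-fold in place of 11. Of these, 6 were higher and 1 lower, against 7.53% and 6.81% of all genes. Signal over background limits the dim genes. With 16 added before the log2, 6 genes passed in WT and 4 of 8 in MARCO-/-, and 0 and 1 of 2 between genotypes with LPS and PBS. Over all genes 3.23% were higher and 4.26% lower with LPS in WT, and 3.63% and 3.23% in MARCO-/-. Between genotypes the shares were 0.222% and 0.363% with LPS, and 0.205% and 0.0819% with PBS. Probe sets past 2-fold were then 12 of 19, 8 of 13, 0 of 3 and 1 of 2. For this and the settings below, shares are given over all genes and not over all probe sets. The probe set counts are therefore not read against a share.

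Where a highest log2 value of at least 8 was asked for, 8 genes and 11 probe sets remained. Of these, 4 genes and 7 probe sets passed with LPS in each genotype and 0 between genotypes, and the median log2 ratios of LPS over PBS were 0.59 in WT and 0.71 in MARCO-/-. Of all 1592 genes that bright, 15.8% were higher and 15.4% lower with LPS in WT, and 17.0% and 12.6% in MARCO-/-. Between genotypes 1.07% were higher and 0.440% lower with PBS, and 1.57% and 0.628% with LPS. Leaving out probe sets with the endings x_at, s_at and a_at, which may read several transcripts, 23 genes and 29 probe sets remained. Then 7 genes and 9 probe sets passed with LPS in WT, 4 and 4 in MARCO-/-, and 1 and 1 in each genotype comparison, with medians of 0.083 in WT and -0.21 in MARCO-/-. Of the 15261 genes left in all, 5.63% were higher and 8.13% lower with LPS in WT, and 6.00% and 5.64% in MARCO-/-. Between genotypes 0.681% were higher and 0.262% lower with PBS, and 2.12% and 1.18% with LPS. Averaging a gene's probe sets gave a median of -0.017 with LPS in MARCO-/- and 1 gene past 2-fold between genotypes with PBS. Over all genes 0.597% were then higher and 0.222% lower with PBS.

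At 1.5-fold, 14 genes passed with LPS in MARCO-/-, against 13.2% of all genes higher and 10.9% lower. Between genotypes with LPS 7 genes passed, against 8.76% higher and 4.92% lower. Probe sets past 1.5-fold were 23 with LPS in MARCO-/-, and 11 and 4 between genotypes with LPS and PBS. At 3-fold, 4 genes passed with LPS in each genotype and 1 in each genotype comparison, with 8, 5, 1 and 1 probe sets. Over all genes 2.65% were higher and 3.78% lower with LPS in WT, and 2.87% and 3.08% in MARCO-/-. Between genotypes the shares were 0.328% and 0.0702% with PBS, and 0.246% and 0.591% with LPS. Without Aldoa, Pfkm, Pkm and Ldha, which skeletal muscle also expresses strongly (a setting chosen after seeing the data), 1 gene passed between genotypes with LPS. The causes were not tested, apart from the fewer genes or the moved threshold that a setting itself brings. No array could be left out of a comparison. No paired analysis was possible because any pair of groups compared holds 1 array on each side, and a model adding genotype and LPS over the 4 arrays was not fitted.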
